A study of Mus musculus with 2 samples.

Results

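The genes described are 52 ligands, latency proteins, receptors, antagonists, SMADs and target genes of transforming growth factor beta (TGF-beta) and bone morphogenetic protein (BMP) signalling, taken by gene symbol from the 23628 genes listed for Sox9GFPHi chondrospheres. All 52 symbols were listed. They fall into 14 ligands, 4 latency proteins, 11 receptors, 9 antagonists, 10 SMADs and SMAD ubiquitin ligases, and 4 target genes. The chondrospheres are colonies grown from single cells in methylcellulose. The cells came from the femoral heads of pups at postnatal day 7 that were homozygous for the *Sox9* IRES-EGFP reporter, and the GFP-high fraction was sorted after cells with the endothelial, erythroid and leukocyte surface markers CD31, Ter119 and CD45 had been gated out. Both libraries share low oxygen and a serum-containing medium supplemented with FGF2, IGF1, LIF and, of the proteins encoded by the genes described here, TGF-beta1 and BMP4. RNA-sequencing gave 2 libraries of this 1 condition, replicate 1 and replicate 2. The study's methods treat each pup, with its femoral heads collected apart from those of other pups, as a biological replicate. The labels do not tie the libraries to separate pups or give the number of colonies in each, so the spread between them may also be technical.

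Ligands of the TGF-beta superfamily are secreted dimers that bring type I and type II receptor kinases together. TGF-beta and activin receptors phosphorylate SMAD2 and SMAD3, while BMP receptors phosphorylate SMAD1, SMAD5 and SMAD9, and either set enters the nucleus with SMAD4. TGF-beta is stored in the matrix in a latent complex bound to latent TGF-beta binding proteins (LTBPs), and BMPs are held back by secreted antagonists. In cartilage, BMP signalling is needed for chondrocyte formation and growth, and TGF-beta signalling restrains hypertrophic maturation.

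Levels are counts-per-million values (CPM) as the authors normalized them. From the smallest step between values, about 43300000 reads of replicate 1 and 42100000 of replicate 2 were assigned to genes, and 3 reads correspond to 0.0693 and 0.0712 CPM. Levels of different genes are compared only after division by exonic length, as CPM per kilobase of exon. The 7 chondrocyte markers examined all had means of at least 100 CPM, and summed to 176148 CPM in replicate 1 against 121994 CPM in replicate 2. Most of both sums was *Col2a1*, at 148953 and 100682 CPM. *Sox9*, at 252 and 279 CPM, and *Hapln1*, at 396 and 544 CPM, were higher in replicate 2, and the others lower. Of 6 endothelial markers, 5 were listed at 0 in both libraries and only *Pecam1* had reads, at 0.231 and 0.166 CPM. The leukocyte, erythroid, skeletal muscle and adipocyte lists each summed to under 7 CPM in each library. The 6 osteoblast markers summed to 5.18 CPM in replicate 1 against 53.5 CPM in replicate 2, and the 7 fibroblast markers to 4761 and 3474 CPM. Most of the osteoblast difference came from *Dmp1*, an osteocyte matrix gene with 0.116 and 40.4 CPM, without which the other 5 summed to 5.07 and 13.0 CPM. Nearly all of the fibroblast sum came from the matrix genes *Col1a2*, at 2714 and 2620 CPM, *Col1a1*, at 1166 and 584 CPM, and *Dcn*, at 879 and 267 CPM. *Pdgfra* had 2.03 and 2.71 CPM, and *Thy1*, *Dpt* and *Pi16* were under 1 CPM in each library.

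Promoter sequences were matched in RefSeq on GRCm38.p6 for 36 of the 52 genes. The motifs searched on both strands were GTCTAGAC, the palindrome bound by SMAD3 and SMAD4, GGCGCC, a GC-rich element bound by the BMP-activated SMADs, and TATAAA, the TATA box. None of these motifs overlap in the stretches below. The first stretch is shown because *Smad6* was the only matched gene with the palindrome. The other 3, *Inhba*, *Grem1* and *Chrd*, are examples of genes that differed past 2-fold between the libraries and held a searched motif. *Ltbp4* and *Tgfbi*, past 2-fold higher in replicate 2, also held GGCGCC in their promoters and are not shown. Capitals mark the motif.
*Smad6*: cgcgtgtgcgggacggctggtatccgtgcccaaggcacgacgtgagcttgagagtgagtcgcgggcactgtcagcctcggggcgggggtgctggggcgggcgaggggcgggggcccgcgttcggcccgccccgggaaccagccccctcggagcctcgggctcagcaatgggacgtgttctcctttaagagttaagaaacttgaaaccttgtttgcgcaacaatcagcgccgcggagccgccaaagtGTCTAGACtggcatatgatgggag
*Inhba*: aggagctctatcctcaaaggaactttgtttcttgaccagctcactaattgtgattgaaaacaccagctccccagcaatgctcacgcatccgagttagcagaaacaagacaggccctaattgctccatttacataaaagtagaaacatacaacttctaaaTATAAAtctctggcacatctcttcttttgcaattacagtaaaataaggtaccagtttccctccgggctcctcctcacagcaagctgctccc
*Grem1*: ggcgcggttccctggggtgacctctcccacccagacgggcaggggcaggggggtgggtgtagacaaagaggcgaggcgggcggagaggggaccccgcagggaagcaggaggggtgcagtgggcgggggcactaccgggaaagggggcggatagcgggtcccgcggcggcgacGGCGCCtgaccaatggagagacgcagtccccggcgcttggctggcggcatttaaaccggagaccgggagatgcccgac
*Chrd*: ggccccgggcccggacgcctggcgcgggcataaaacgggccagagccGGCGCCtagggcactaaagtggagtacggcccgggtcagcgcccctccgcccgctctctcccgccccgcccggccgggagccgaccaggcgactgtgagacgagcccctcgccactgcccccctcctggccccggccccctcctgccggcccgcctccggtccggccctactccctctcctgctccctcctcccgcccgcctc
The *Smad6* stretch is chr9:64022040-64022309 on the minus strand and reaches from 250 bases before the start of transcription to 20 bases after it. The palindrome lies across the start, from position -4 to 4, and was present in 0.213% of the 32851 promoters in the table, all of the same length. The *Inhba* stretch is chr13:16011601-16011850 on the plus strand, with TATAAA from position -91 to -86. This motif was present in 13.6% of all promoters over their full length, and in 12.4% within the 250 bases before the start. Of the 44 promoters of the matched genes, 5 held it over their full length, or 11.4%. The *Grem1* stretch, chr2:113758649-113758898 on the minus strand, holds GGCGCC from position -78 to -73, and the *Chrd* stretch, chr16:20732877-20733126 on the plus strand, holds it from position -203 to -198. GGCGCC was present over the full length in 11.9% of all promoters and in 15 of the 44 promoters of the matched genes, or 34.1%. Within the 250 bases before the start, 9.59% of all promoters held it. The motif consists of G and C only, and these shares were not matched for the GC content of the promoters. The *Grem1* and *Chrd* stretches were 72.0% and 78.0% G and C, against 65.6% for *Smad6* and 43.2% for *Inhba*. A match describes the letters and not a bound site.

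Most of the pathway was transcribed in the chondrospheres. Means of 1 CPM or more were reached by 46 of the 52 genes (88.5%), against 53.5% of all genes listed, and at least 10 CPM by 41 (78.8%), against 33.4% of all genes. The median level of the 52 genes was 17.6 CPM in replicate 1 against 30.2 CPM in replicate 2, compared with 1.32 and 1.72 CPM over all genes listed. Together they took 0.334% of all CPM in replicate 1 against 0.554% in replicate 2. Per kilobase, the highest means belonged to latency proteins, antagonists and the target gene *Id1*, while no receptor was above 9.49 CPM per kilobase. In the order of the 46 genes by mean per kilobase, the gap between neighbours was larger than the SD of both for 1 of 45 pairs, *Bmpr1b* above *Gdf11*, so the order of most neighbours is not resolved by 2 libraries. *Gdf6* and *Acvrl1* were listed at 0 in both libraries, and *Inhbb*, *Bmp4*, *Bmp6* and *Acvr2b* had means under 1 CPM.

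**Figure D1:**
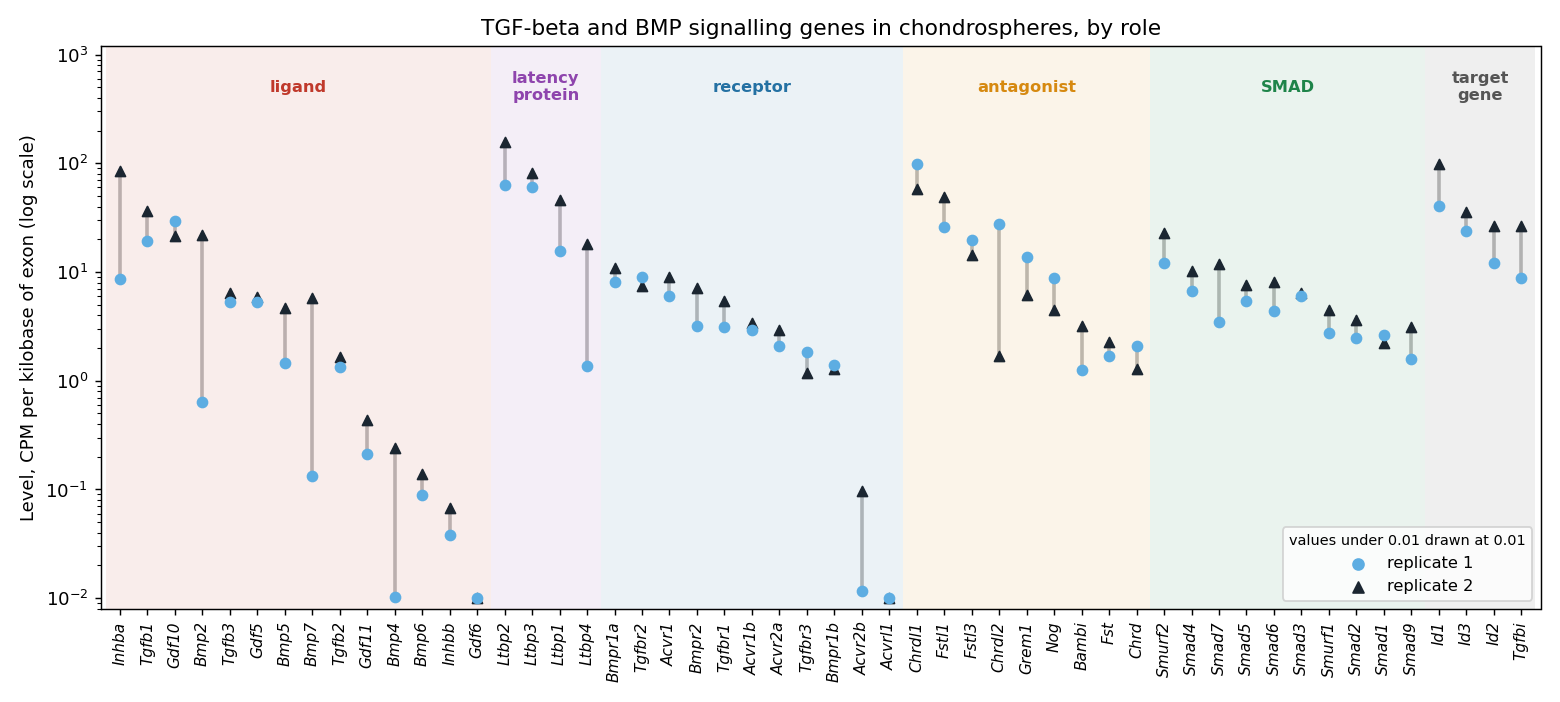
Level of each of the 52 genes in CPM per kilobase of exon on a log axis, grouped by role and ordered by mean, with a circle for replicate 1 and a triangle for replicate 2 joined by a line. *Ltbp2*, *Chrdl1*, *Ltbp3* and *Id1* have the highest means, from 110 to 69.1 CPM per kilobase, and *Bmp2*, *Bmp7*, *Ltbp4*, *Inhba* and *Chrdl2* have long lines between the libraries.

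The 2 libraries were set against each other as the spread between replicates, by the log2 ratio of replicate 2 to replicate 1 with a pseudocount of 0.1 CPM. It was taken relative to the median ratio, 0.30, of the 12631 genes whose mean reached 1 CPM, and is called the centred log2 ratio. With 1 library on each side no test was possible, and a gene was called where the centred ratio passed 2-fold. Of the 46 pathway genes in this range, 10 were called higher in replicate 2 (21.7%), against 7.43% of all genes, and 5 were called lower (10.9%), against 6.06% of all genes. The median size of the centred log2 ratio, without its sign, was 0.63 over the 46 genes and 0.30 over all genes. The 10 higher genes were the ligands *Bmp2*, *Bmp5*, *Bmp7* and *Inhba*, the latency proteins *Ltbp1*, *Ltbp2* and *Ltbp4*, and *Bambi*, *Smad7* and *Tgfbi*. The 5 lower genes were the secreted BMP antagonists *Nog*, *Grem1*, *Chrd*, *Chrdl1* and *Chrdl2*. Of the all-gene calls, 55.0% were higher with this centring and 75.4% without it. Without centring, 13 pathway genes were called higher, with *Bmpr2*, *Id1* and *Id2* added, and 2 lower, *Chrdl2* and *Grem1*.

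**Figure D2:**
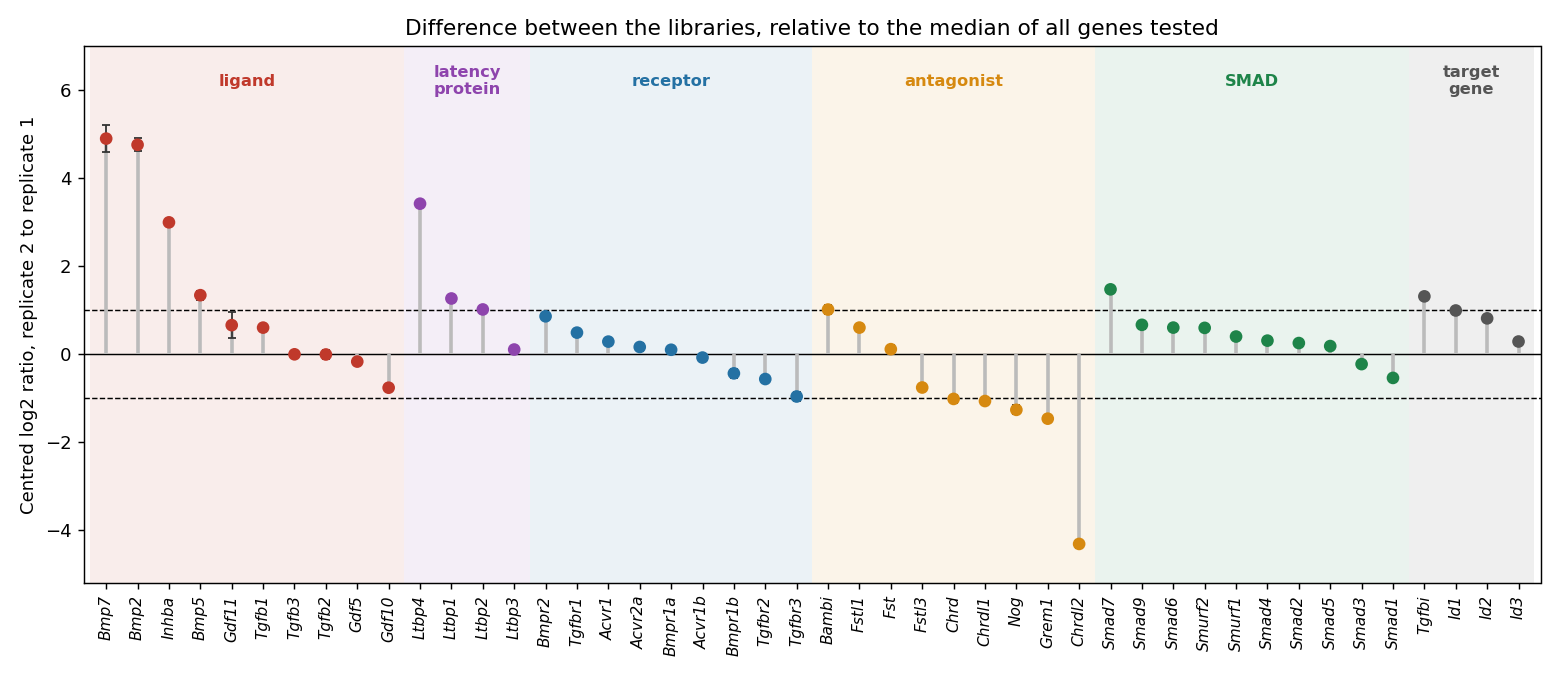
Centred log2 ratio of replicate 2 to replicate 1 for the 46 genes whose mean reached 1 CPM, grouped by role, with dashed lines at 2-fold and error bars for the counting error. *Bmp7* and *Bmp2* stand at 4.89 and 4.75, and 5 antagonists lie below the lower dashed line, down to -4.32 for *Chrdl2*.

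Other markers moved between the same libraries. Of the 4 osteoblast markers whose mean reached 1 CPM, 3 were past 2-fold higher in replicate 2, against 7.43% of all genes. The median centred log2 ratio of the 4 was 1.49, ranging from 0.22 to 7.25. Of the 3, *Sp7*, at 1.96 and 6.81 CPM, and *Alpl*, at 0.462 and 1.92 CPM, were low. *Alpl* and *Dmp1* were under 1 CPM in replicate 1 and reached the mean of 1 CPM only through replicate 2. They could therefore enter only as higher there, which also raises the median. Of the chondrocyte markers, 2 of 7 were past 2-fold lower, against 6.06% of all genes, with a median of -0.71. Of 4 fibroblast markers 2 were lower, with a median of -0.83. The 10 highest genes held 43.4% of all CPM in replicate 1 against 34.7% in replicate 2. The part of these differences in the ratios of the pathway genes was not tested, and in these bulk libraries fewer cells of a type and less RNA per cell cannot be told apart.

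**Figure D3:**
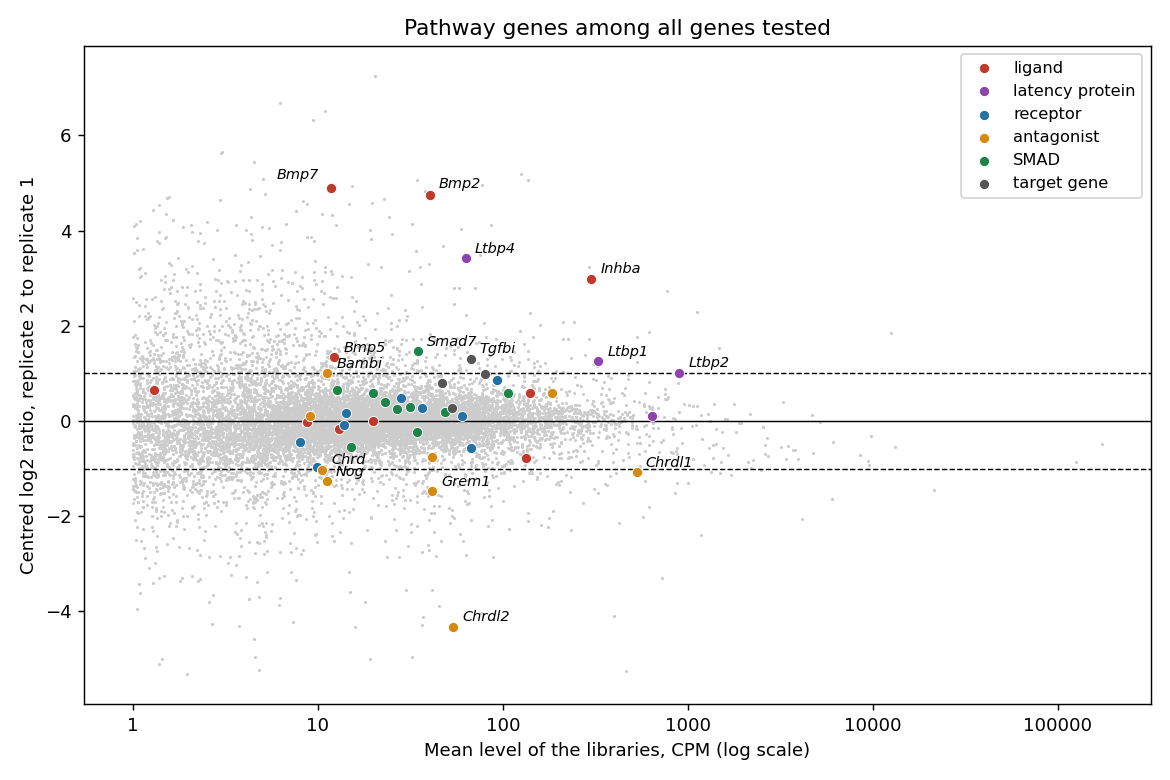
Centred log2 ratio of replicate 2 to replicate 1 against the mean level in CPM on a log axis, with all 12631 genes in grey and the 46 pathway genes coloured by role. Most pathway genes lie within the dashed 2-fold lines, and *Bmp2*, *Bmp7*, *Ltbp4*, *Inhba* and *Chrdl2* lie far from the grey mass at their level.

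Among the ligands, *Tgfb1*, *Gdf10* and *Inhba* had means above 100 CPM, whereas the BMP genes were low in replicate 1. *Tgfb1*, at 25687002 to 25705077 on chromosome 7 of GRCm38, encodes the TGF-beta isoform that was also in the medium. *Tgfb1* had 97.8 CPM in replicate 1 against 183 CPM in replicate 2, a centred log2 ratio of 0.60. *Tgfb3* had 17.7 and 21.8 CPM and *Tgfb2* 7.81 and 9.58 CPM, with centred ratios of -0.01 each, so that both isoforms followed the median gene. Per kilobase, *Tgfb1* was above *Tgfb3* in both libraries and *Tgfb3* above *Tgfb2*. *Gdf10*, a divergent family member also called BMP3B, had 155 and 112 CPM, a centred log2 ratio of -0.77.

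*Inhba*, which encodes the subunit of activin A, had 55.5 CPM in replicate 1 against 546 CPM in replicate 2. Its mean was 301 ± 347 CPM (SD, n = 2), so the SD exceeded the mean. The centred log2 ratio was 2.99, and the gene ranked 124 among the 12631 genes by its excess in replicate 2. *Inhbb*, the subunit of activin B, had 0.162 and 0.285 CPM, so *Inhba* supplied nearly all of the activin subunit transcripts in both libraries.

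Of the BMP ligands, 3 of 5 could be compared between the libraries and all 3 were past 2-fold higher in replicate 2, against 7.43% of all genes. Of these, *Bmp7* was under 1 CPM in replicate 1 and reached the mean of 1 CPM only through replicate 2, so it could enter only as higher there. *Bmp2*, which drives chondrocyte maturation and bone formation, spans 133552159 to 133562885 on chromosome 2 and had 2.26 CPM in replicate 1 against 78.6 CPM in replicate 2. Its mean was 40.5 ± 54.0 CPM (SD, n = 2) and its centred log2 ratio 4.75, rank 18 of the 12631 genes. *Bmp7* had 0.531 and 23.1 CPM, a centred log2 ratio of 4.89 at rank 14. The counting error of that ratio was 0.30 on the log2 scale, so the difference was far beyond what counting few reads in replicate 1 gives. *Bmp5* had 5.91 and 18.6 CPM, a ratio of 1.34. Both *Bmp4*, at 0.0231 and 0.546 CPM, and *Bmp6*, at 0.347 and 0.546 CPM, stayed under 1 CPM. Transcripts of *Bmp4*, whose protein was in the medium of both libraries, were thus among the rarest of the pathway. *Gdf5*, a joint-forming factor of the articular lineage, had 12.4 and 13.6 CPM with a centred ratio of -0.17, close to the median gene. *Gdf6*, its near relative, was listed at 0 in both libraries, and *Gdf11* had 0.855 and 1.76 CPM.

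The latency proteins held the first and the third place of the 52 genes per kilobase, with *Ltbp2* and *Ltbp3*. *Ltbp2*, which binds fibrillin microfibrils and, unlike the other LTBPs, not latent TGF-beta, had 516 CPM in replicate 1 against 1283 CPM in replicate 2 and ranked 73 by mean among all 23628 genes. *Ltbp3* followed with 552 and 730 CPM, a centred log2 ratio of 0.10, and was thus near the median gene. *Ltbp1*, at 75005568 to 75392512 on chromosome 17, had 166 and 490 CPM, a ratio of 1.26. *Ltbp4* differed most, with 8.80 CPM in replicate 1 against 117 CPM in replicate 2, a ratio of 3.42. All 4 latency proteins had a centred ratio above 0 and 3 of them were past 2-fold, against 7.43% of all genes, with *Ltbp2* just outside at 2.02-fold. *Ltbp2* was not past it when only genes with a mean of 10 CPM or more were used for centring.

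No receptor was called. None of the 9 that could be compared passed 2-fold with centring (*Bmpr2* did without it), and their median centred log2 ratio was 0.10, with a range from -0.97 to 0.86. With 7.43% and 6.06% of all genes called, 0 of 9 is near the background, and the median size of the ratio without its sign was 0.44, against 0.30 over all genes. Among the type I receptors, *Bmpr1a*, the main BMP receptor of chondrocytes, was the highest per kilobase at 9.49 ± 1.85 CPM per kilobase (SD, n = 2), with 51.9 CPM in replicate 1 against 68.5 CPM in replicate 2. *Acvr1*, which encodes ALK2, had 29.2 and 43.8 CPM, and *Tgfbr1*, the type I receptor for TGF-beta, 20.5 and 35.5 CPM. Their centred log2 ratios were 0.10, 0.28 and 0.48. *Bmpr1a* was thus near the median gene, and *Acvr1* and *Tgfbr1* stood somewhat higher in replicate 2, but within 2-fold. *Acvr1b*, an activin receptor, had 12.8 and 15.0 CPM, and *Bmpr1b* 8.41 and 7.64 CPM. *Acvrl1*, which encodes the ALK1 receptor found mainly in endothelium, was listed at 0 in both libraries, as were 5 of the 6 endothelial markers.

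Of the type II receptors, *Bmpr2* had 57.5 CPM in replicate 1 against 129 CPM in replicate 2, a centred log2 ratio of 0.86. *Tgfbr2* had 73.7 and 61.3 CPM, a ratio of -0.57. These 2 receptors therefore lay on opposite sides of the median gene, and the log2 ratio of *Tgfbr2* to *Bmpr2* per kilobase was 1.49 in replicate 1 and 0.07 in replicate 2. *Acvr2a* had 11.9 and 16.5 CPM, while *Acvr2b* had 0.0462 and 0.380 CPM. *Tgfbr3*, the co-receptor betaglycan that presents TGF-beta2, had 12.2 and 7.64 CPM, a centred ratio of -0.97 or 1.95-fold, just inside the 2-fold line.

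The 5 secreted BMP antagonists among the 52 genes were all lower in replicate 2. *Chrdl1*, which encodes a chordin-like BMP-binding protein and spans 143285674 to 143394262 on chromosome X, had 665 CPM in replicate 1 against 391 CPM in replicate 2, and ranked 138 by mean among all genes. Its centred log2 ratio was -1.07. *Chrdl2*, its paralog expressed in cartilage, differed most, with 102 and 6.22 CPM and a mean of 54.1 ± 67.7 CPM (SD, n = 2). That was a centred log2 ratio of -4.32, rank 11 of the 12631 genes by its deficit in replicate 2. *Grem1*, a marker of articular and skeletal progenitors that binds BMP2 and BMP4, had 57.3 and 25.5 CPM, a ratio of -1.47. *Nog*, which encodes noggin, had 14.8 and 7.52 CPM, and *Chrd*, which encodes chordin, had 13.1 and 7.95 CPM, with ratios of -1.27 and -1.02. All 5 ratios stayed below 0 under each scaling, pseudocount and filter tried, the nearest to 0 being -0.72 without centring, where only *Chrdl2* and *Grem1* remained past 2-fold. *Chrd*, at 2.03-fold, lay closest to the line, and did not pass it with a pseudocount of 1 CPM or with no filter on low values.

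The other antagonists lay on both sides of the median gene. *Fstl1*, a follistatin-like glycoprotein of mesenchyme, had 128 CPM in replicate 1 against 239 CPM in replicate 2, a centred log2 ratio of 0.60. *Fst*, which encodes the activin-binding follistatin, had 7.76 and 10.4 CPM, a ratio of 0.11, and *Fstl3*, another activin binder, 48.1 and 34.9 CPM, a ratio of -0.76. None of the follistatin family passed 2-fold. *Bambi*, a receptor decoy without a kinase domain, had 6.42 and 16.1 CPM, a ratio of 1.01 or 2.01-fold, and so stood just past the line. It did not pass with a pseudocount of 1 CPM, or when only genes with a mean of 10 CPM or more were used.

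The 8 SMADs had means from 2.35 to 8.47 CPM per kilobase and, except for *Smad7*, differed within 2-fold. Of the BMP-activated SMADs, *Smad5* had 40.5 CPM in replicate 1 against 56.7 CPM in replicate 2, *Smad1* had 16.4 and 13.8 CPM, and *Smad9* had 8.53 and 16.7 CPM. Of the TGF-beta-activated SMADs, *Smad3* had 33.4 and 35.2 CPM and *Smad2* 21.7 and 31.9 CPM. *Smad4*, the partner of both sets, had 24.9 and 38.0 CPM. Centred log2 ratios of these 6 genes ran from -0.54 for *Smad1* to 0.66 for *Smad9*. The inhibitory SMADs are induced by the signals they restrain. *Smad7* had 15.6 and 53.6 CPM, a centred log2 ratio of 1.47, and *Smad6*, whose start of transcription carries the palindrome shown above, had 13.9 and 26.1 CPM, a ratio of 0.60. *Smurf2*, a ubiquitin ligase for SMADs and receptors, had 74.8 and 139 CPM, and *Smurf1* 17.5 and 28.5 CPM, with ratios of 0.59 and 0.40.

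All 4 target genes among the 52 had a centred ratio above 0, with a median of 0.90. Among 9 further target genes whose mean reached 1 CPM, 6 had a ratio above 0 and 3 below it, with a median of 0.75. *Id1*, a BMP-induced inhibitor of basic helix-loop-helix factors at 152736251 to 152737410 on chromosome 2, had 46.5 CPM in replicate 1 against 114 CPM in replicate 2. Its ratio of 0.99, or 1.98-fold, was just inside the 2-fold line, and it passed that line when a trimmed mean served for centring. *Id2* had 29.8 and 64.6 CPM, a ratio of 0.81, and *Id3* had 42.3 and 63.5 CPM, a ratio of 0.28. *Tgfbi*, a TGF-beta-induced matrix protein, had 32.9 and 101 CPM, a ratio of 1.31, and was the only one of the 4 past 2-fold with this centring.

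Ratios of related genes within a library are free of its scaling. Of 28 pairs, 4 held a gene under the level of 3 reads in at least 1 library and were not compared. In 21 of the other 24, the mean log2 ratio per kilobase was larger than its SD between libraries and had the same sign in both. *Tgfb1* exceeded *Tgfb3* by 2.19 ± 0.43 and *Tgfb3* exceeded *Tgfb2* by 1.96 ± 0.0013 (log2, SD, n = 2). *Bmpr1a* exceeded *Bmpr1b* by 2.80 ± 0.38, and the ratio of *Tgfbr1* to *Tgfbr2* was -0.99 ± 0.75, with the type II gene higher in both libraries. The signal transducers held their order, with *Smad5* above *Smad1*, where the ratio of *Smad1* to *Smad5* was -1.43 ± 0.51. *Smad3* likewise stood above *Smad2*, with a ratio of *Smad2* to *Smad3* of -1.05 ± 0.34, and *Smad4* exceeded *Smad2* by 1.47 ± 0.0388. *Id1* exceeded *Id2* by 1.80 ± 0.13 and *Id3* by 1.12 ± 0.50. An SD of 2 values can be small by coincidence and does not cover the choice of length. Without division by length, *Tgfb3* exceeded *Tgfb2* by 1.18 and *Smad4* exceeded *Smad2* by 0.23. The ratio did not exceed its spread for *Tgfbr2* to *Bmpr2*, for *Smad6* to *Smad7*, which was 0.33 in replicate 1 and -0.54 in replicate 2, and for *Grem1* to *Bmp2*. *Grem1* stood above *Bmp2* by a log2 ratio of 4.44 in replicate 1 and below it, at -1.85, in replicate 2.

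**Figure D4:**
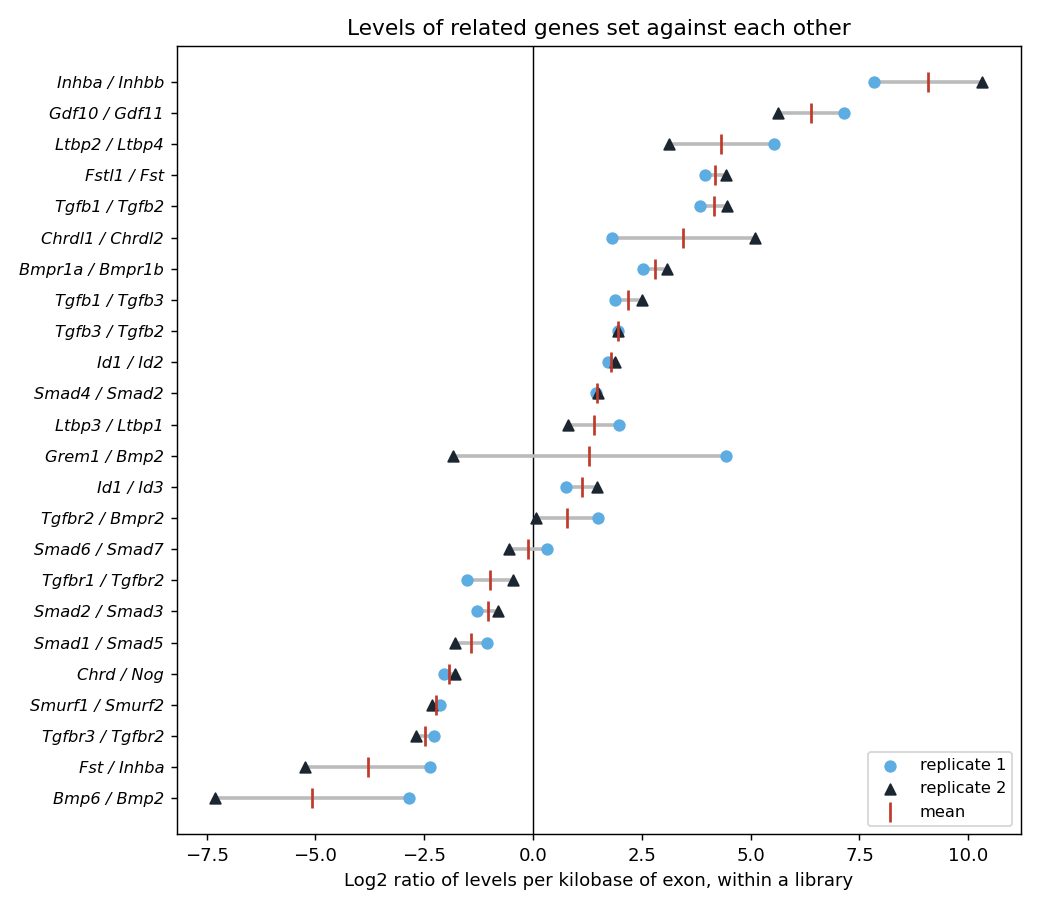
Log2 ratio of the levels per kilobase of exon for the 24 compared pairs, with a circle for replicate 1, a triangle for replicate 2 and a short red bar for the mean. The libraries lie closest together for *Tgfb3* to *Tgfb2* and for *Smad4* to *Smad2*. *Smad6* to *Smad7* changes sign, and *Grem1* to *Bmp2* runs from 4.44 to -1.85.

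Summed by kind of gene, the balance of BMP ligands and BMP antagonists differed between the libraries, and that of TGF-beta ligands and latency proteins differed less. The 5 BMP ligands summed to 2.34 CPM per kilobase in replicate 1 and 32.9 CPM per kilobase in replicate 2, and the 5 secreted BMP antagonists to 151 and 71.4 CPM per kilobase. Transcripts of these 5 antagonists thus exceeded those of these 5 ligands 64.6-fold in replicate 1 and 2.17-fold in replicate 2. *Chrdl1* made up most of the antagonist sum, and without it the antagonists stood at 22.4 times the ligands in replicate 1 and at 0.412 times in replicate 2. The latency proteins stood at 5.41 times the TGF-beta ligands in replicate 1 and at 6.79 times in replicate 2, and at 2.99 and 3.26 times without *Ltbp2*, which does not bind latent TGF-beta. Of the activin genes, *Inhba* and *Inhbb* together summed to 0.409 times the activin binders *Fst* and *Fstl3* in replicate 1 and to 5.16 times in replicate 2. Leaving out *Chrdl1* or *Ltbp2* and pairing activin with *Fst* and *Fstl3* are choices made with the values in view. These sums compare transcripts, and the protein added with the medium is not part of them. Antagonists outside the 52 genes are left out as well, such as *Twsg1*, at 59.1 and 47.4 CPM per kilobase. So are the 4 GDF ligands among the 52, which summed to 35.2 and 27.8 CPM per kilobase. *Gdf5* alone, at 5.34 and 5.85 CPM per kilobase, was above the 5 BMP ligands together in replicate 1. The balance and the size of its difference thus depend on the genes listed.

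**Figure D5:**
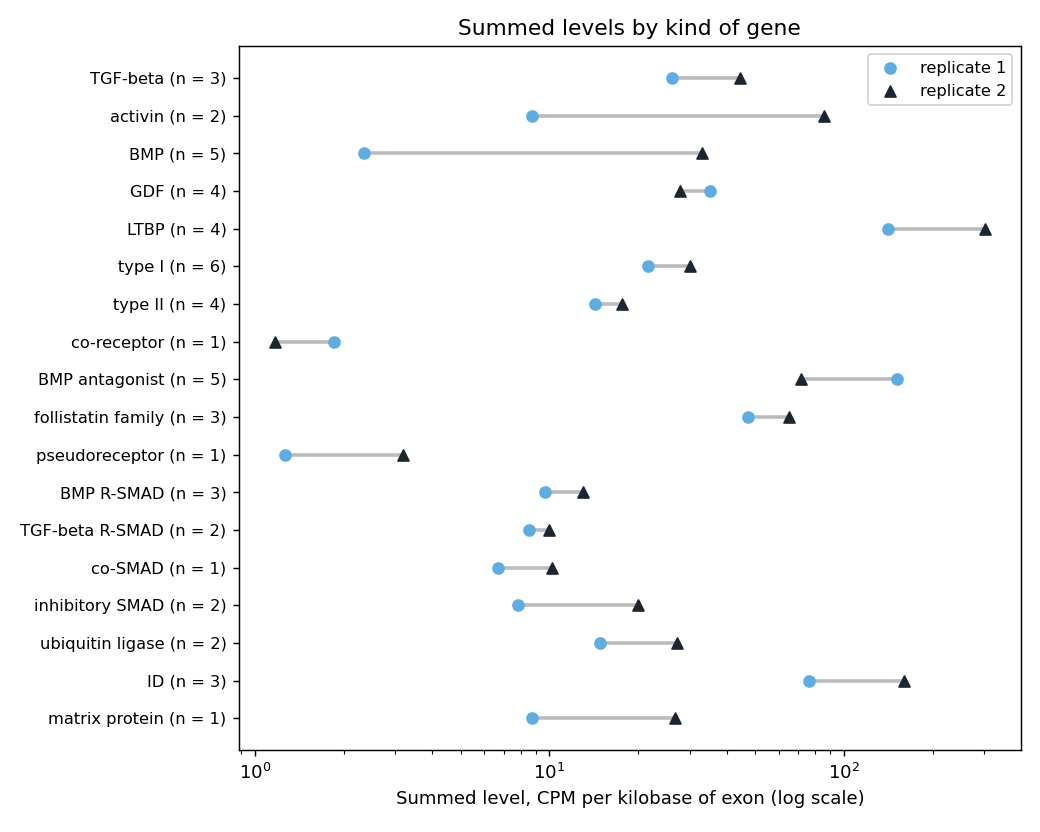
Summed level by kind of gene in CPM per kilobase of exon on a log axis, with a circle for replicate 1 and a triangle for replicate 2. BMP ligands and activin subunits have the longest lines, from 2.34 to 32.9 and from 8.73 to 85.5 CPM per kilobase, and BMP antagonists run the opposite way.

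A further 64 symbols of the pathway were examined, of which 50 were listed and 36 reached a mean of 1 CPM. Of these 36 genes, 7 were past 2-fold higher in replicate 2 and 6 lower, against 7.43% and 6.06% of all genes, and their median centred log2 ratio was -0.05. Among the highest per kilobase were *Ccn2*, *Thbs1*, *Pmepa1*, *Twsg1* and *Ski*. *Ccn2*, a matricellular target of TGF-beta in cartilage, had 3732 CPM in replicate 1 against 3209 CPM in replicate 2. *Thbs1*, which encodes the TGF-beta activator thrombospondin 1, had 4022 and 5404 CPM, and *Pmepa1*, a TGF-beta-induced feedback inhibitor, 752 and 681 CPM. By mean, these 3 genes lay above every one of the 52 per kilobase, at 1213, 776 and 146 CPM per kilobase, although in replicate 2 *Ltbp2*, at 157 CPM per kilobase, was above *Pmepa1*, at 139. All 3 were within 2-fold between the libraries. *Twsg1*, a BMP-binding partner of chordin, had 304 and 244 CPM, and *Ski*, a SMAD corepressor, 86.7 and 159 CPM.

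The further genes past 2-fold higher included *Itgav*, the alpha-v integrin subunit that activates latent TGF-beta, at 88.0 and 360 CPM, the antagonists *Nbl1* and *Bmper*, and the BMP target genes *Msx2* and *Atoh8*. *Msx2* had 4.11 and 15.8 CPM and *Atoh8* 23.0 and 60.7 CPM. *Nbl1* had 11.9 and 42.0 CPM, a centred log2 ratio of 1.51. Of the 6 further antagonists whose mean reached 1 CPM, 3 were past 2-fold higher and 0 lower, against 7.43% and 6.06% of all genes. Their median ratio was 0.57, with 3 ratios above 0 and 3 below it. Without centring, the 8 listed summed to 77.7 CPM per kilobase in replicate 1 and 80.7 in replicate 2. *Twsg1*, with a centred log2 ratio of -0.62, made up most of both sums. The lower levels of the 5 BMP antagonists described above were thus not shared by all of the further antagonists. *Bmper* had 0.947 and 5.46 CPM, and so reached the mean of 1 CPM only through replicate 2. The 6 genes past 2-fold lower were *Eng*, *Nedd4l*, *Hey1*, *Tgif2*, *Lefty1* and *Itgb8*. Of these, *Hey1* is a target gene, with a centred ratio of -1.42. *Eng*, which encodes the co-receptor endoglin, differed most of the 6, with 61.6 and 11.2 CPM and a centred ratio of -2.75, while the endothelial markers beside it summed to under 1 CPM in each library.

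Reads could be told apart for nearly all of these genes. Of the windows of 50 bases, the read length, in the annotated transcripts of each of the 52 genes, at least 96.2% occurred in no transcript of another gene, the lowest share being that of *Tgfbr3*. Annotated exons on the opposite strand covered 47.3% of the exonic bases of *Fstl3*, 46.7% of *Bmp5* and 40.3% of *Gdf5*. Whether the counting used strand is not given in the sources used here, but the partners were nearly silent, with *Prss57*, opposite *Fstl3*, listed at 0 in both libraries, *Gm26903*, opposite *Bmp5*, at 0 and 0.0305 CPM, and *Gm15557*, opposite *Gdf5*, at 0.386 and 0.257 CPM.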

How the data were processed

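Poly(A) RNA of 2 libraries from 1 group was made into stranded libraries and sequenced by the submitters as single-end reads of 50 bases. The authors used STAR 2.7.3a in Partek Flow 10.0.21.0801 for alignment to GRCm38 (GENCODE M25), quantified genes with Partek E/M and deposited counts-per-million values (CPM). An offset of 0.0001 in each deposited CPM value was subtracted. Whole multiples of the step of 1 read (within 1% of a step) made up 63.7% of the low values of replicate 1 and 62.4% of those of replicate 2, too few to turn the values back into reads, and count models were not used. A gene at 10 CPM rests on about 433 reads in replicate 1 and 421 in replicate 2, and errors given for counting cover counting only.

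Exonic lengths and positions came from GENCODE M21 on the same build, which matched 97.2% of the gene names and all 52 members. Log2 ratios between libraries used a pseudocount of 0.1 CPM, which understates the difference of low genes, and a mean of at least 1 CPM. The members and lists were chosen with earlier results of these data known. Named genes were all members, and of the other pathway genes the 6 highest per kilobase and those past 2-fold, except that some of the latter are not reported here. No p-value was computed, as the libraries are of 1 condition. The ratio computation was tested on simulated data. The alternatives covered scaling, centring, pseudocount, filter, length and leaving out each library. Python 3.11.15, numpy 2.4.6, pandas 2.3.3 and matplotlib 3.10.9 were used.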

Additional observations from a re-analysis of the deposited data

How the results depend on the processing

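For 31 results, 128 values were recomputed, with 1 choice changed except where the total and the centring were changed together. The sign changed in 3 of them, all for pairs whose ratio did not exceed its SD. *Tgfbr2* to *Bmpr2* went from 0.78 to -0.36 without division by length, *Grem1* to *Bmp2* from 1.30 to -1.85 without replicate 1, and *Smad6* to *Smad7* from -0.11 to 0.33 without replicate 2. The median level of the 52 genes, 29.7 CPM over the means of both libraries, was 48.0 CPM when the total omitted the 10 highest genes, as a smaller total requires, and 17.6 to 30.2 CPM with either library left out. The number of genes past 2-fold lower in replicate 2 was 5, but 2 without centring, and 3 when the total omitted the 10 highest genes and no centring was used, an alternative chosen after seeing the data. The median centred log2 ratio of the 46 genes was 0.28 and was 0.59 without centring, by the shift that centring removes. The number past 2-fold higher was 10 and ranged from 8 to 13 over the alternatives. Of 96 values for single pairs, 15 moved by more than the SD between libraries, 6 with the length of the longest coding transcript and 9 without division by length, the choice that was changed. The values with a library left out lie within 1 SD of the mean by arithmetic and show no stability. Leaving out a library leaves no ratio between libraries, so none was computed for those results. No paired analysis was possible because the labels give a single group. Depth limits the genes under 1 CPM, where a few reads set the ratio.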
